A study of Mus musculus with 8 samples.

Results

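The interleukin and interleukin receptor genes described here are the 65 of 67 genes in the deposited table whose symbol begins with Il followed by a digit and whose value reached 10 in at least 2 libraries. The table holds 24612 genes, of which 23185 passed the same filter and were tested. Il4 and Il12a did not pass it, with second-highest values of 6.26 and 5.69. The members with the lowest second-highest values that passed were Il21 at 14.0, Il17f at 14.5 and Il11ra2 at 15.1. The genes were chosen by name, and the rule used no difference between groups. The choice was made with earlier results of these data known.

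Skin RNA was sequenced in 8 libraries from male C57BL/6 J mice whose treatment began at 6 weeks of age and which were sampled at 21 days. In 2 libraries the mice had received 0.1 mL of phosphate-buffered saline (PBS) under the skin, and in 3 libraries 0.1 units of bleomycin under the skin. In the remaining 3 libraries the mice had received daily intraperitoneal celastrol, 1 or 2 mg per kg of body weight. Bleomycin damages DNA and is used in mice as a model of scleroderma, a disease of fibrotic skin. Celastrol, a triterpenoid from the thunder god vine, was studied here for effects on fibrosis. The labels give neither the dose of a given celastrol mouse nor whether celastrol mice also received bleomycin. They also do not state that each library came from a different mouse, so p-values measure the spread between these libraries.

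Interleukins are secreted signals of immune and barrier cells. The IL-1 family signals through paired receptors to NF-kB and is held back by antagonist ligands, by binding proteins and by decoy receptors that bind ligand without signalling. The IL-6 and IL-11 cytokines share the signalling chain gp130, and many other interleukins act through Janus kinases and STAT proteins. In skin, keratinocytes make IL-1 alpha, IL-18, IL-33 and the IL-36 cytokines, while IL-6 and IL-11 are known as products of stressed fibroblasts and epithelium.

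The members lay partly in gene clusters on the mm10 build (GENCODE release M21, which matched 64 of 65 members by chromosome, strand, start and end). On chromosome 1, 6 receptor genes stood within 477.6 kb (chr1:40074079-40551705), namely Il1r2, Il1r1, Il1rl2, Il1rl1, Il18r1 and Il18rap. On chromosome 2, 6 ligand genes stood within 198.3 kb (chr2:24153161-24351494), namely Il1f8, Il1f9, Il1f6, Il1f5, Il1f10 and Il1rn. The table uses older symbols here: Il1f6, Il1f8 and Il1f9 encode the IL-36 alpha, beta and gamma agonists, Il1f5 encodes the IL-36 receptor antagonist, and Il1rl2 encodes the IL-36 receptor.

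The results turn on Il1r2 and on the IL-36 genes, so the 250 bases before their RefSeq start sites are shown (GRCm38.p6, all on the plus strand, 5′ to 3′). Capitals mark a match to TGANTCA (the AP-1 motif) or TTCNNNGAA (the STAT motif). The starts of Il1r2 and Il1f8 lie inside the annotated genes, and the Il1f8 window runs past the annotated start at 24153161. Il1f5 is shown at the start that matches the annotated gene start. Il1f6 is named only.
Il1r2, chr1:40085843-40086092: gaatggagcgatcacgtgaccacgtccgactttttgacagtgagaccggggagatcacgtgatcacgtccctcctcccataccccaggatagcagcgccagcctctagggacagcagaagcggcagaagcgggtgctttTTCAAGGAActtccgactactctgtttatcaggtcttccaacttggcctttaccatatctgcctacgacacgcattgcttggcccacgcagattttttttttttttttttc
Il1f8, chr2:24152922-24153171: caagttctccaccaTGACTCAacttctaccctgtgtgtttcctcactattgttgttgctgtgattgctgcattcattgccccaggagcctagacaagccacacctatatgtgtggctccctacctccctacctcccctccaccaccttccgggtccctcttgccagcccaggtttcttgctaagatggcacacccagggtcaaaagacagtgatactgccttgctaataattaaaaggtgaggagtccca
Il1f9, chr2:24186226-24186475: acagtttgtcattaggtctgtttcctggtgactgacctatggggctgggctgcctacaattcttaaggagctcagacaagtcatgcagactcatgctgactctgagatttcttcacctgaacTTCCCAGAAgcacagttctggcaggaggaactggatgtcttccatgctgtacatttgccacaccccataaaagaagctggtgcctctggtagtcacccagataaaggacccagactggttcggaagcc
Il1f5, chr2:24276704-24276953: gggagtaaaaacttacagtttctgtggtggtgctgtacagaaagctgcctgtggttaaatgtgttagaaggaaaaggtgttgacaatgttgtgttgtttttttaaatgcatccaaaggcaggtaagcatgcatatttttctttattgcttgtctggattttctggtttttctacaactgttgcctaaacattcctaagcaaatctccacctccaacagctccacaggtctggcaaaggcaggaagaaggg
Il1r2 and Il1f9 held a STAT match, at -111 and -128 from the start, Il1f8 held an AP-1 match at -236, and the window of Il1f5 shown held none of the letters searched, while the window before its other RefSeq start held a STAT match at -98. Of the 52 members with a promoter in the RefSeq table, 12 genes (23.1%) held TGANTCA on either strand in such a window, against 7.82% of all 27025 genes there. TTCNNNGAA was found in 9 members (17.3%, against 8.13%), a consensus NF-kB motif in 5 (9.62%, against 1.65%), and an interferon-response motif in 1 (1.92%, against 3.46%). The 4 motifs were searched on both strands, and a window may hold more than 1 of them; a match describes letters only.

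Values below are the deposited normalized values, which are linear and scaled for library size. Changes are log2 differences of value plus 1 with the standard error (SE) of a limma fit over all 8 libraries, and adjusted p-values are Benjamini-Hochberg over all 23185 genes. Depth, estimated from the value of a single read, lay between 14900000 and 37100000 reads, and between 593 and 4165 genes stood at 0 in a library. Celastrol 2, Celastrol 3 and Bleomycin 3 had the most genes at 0 (4165, 3001 and 2643), and Celastrol 2 stood apart on principal component 1 at 237.5, where the other libraries lay between -57.3 and -3.63. Members at 0 numbered 7 in Celastrol 2, 6 in Celastrol 3 and 4 in Bleomycin 3. The members together took between 0.235% and 0.293% of a library's values, with no group apart from the others.

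Set against the length of their exons, the highest members were Il13ra1, a receptor chain for IL-4 and IL-13, at a mean of 1806 per kb over the 8 libraries, Il18 at 1482, Il1f9 at 1275, Il1f5 at 1177 and Il6st, the gp130 chain, at 1033. The 2 highest ligands after Il18 both belong to the IL-36 group. Interleukins of lymphocytes were close to the filter: Il10 ranged from 0 to 17.2, Il17f from 7.62 to 16.4 and Il21 from 1.323 to 16.01 in normalized value. In bulk skin, fewer cells of a type and less RNA per cell cannot be told apart.

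**Figure D1:**
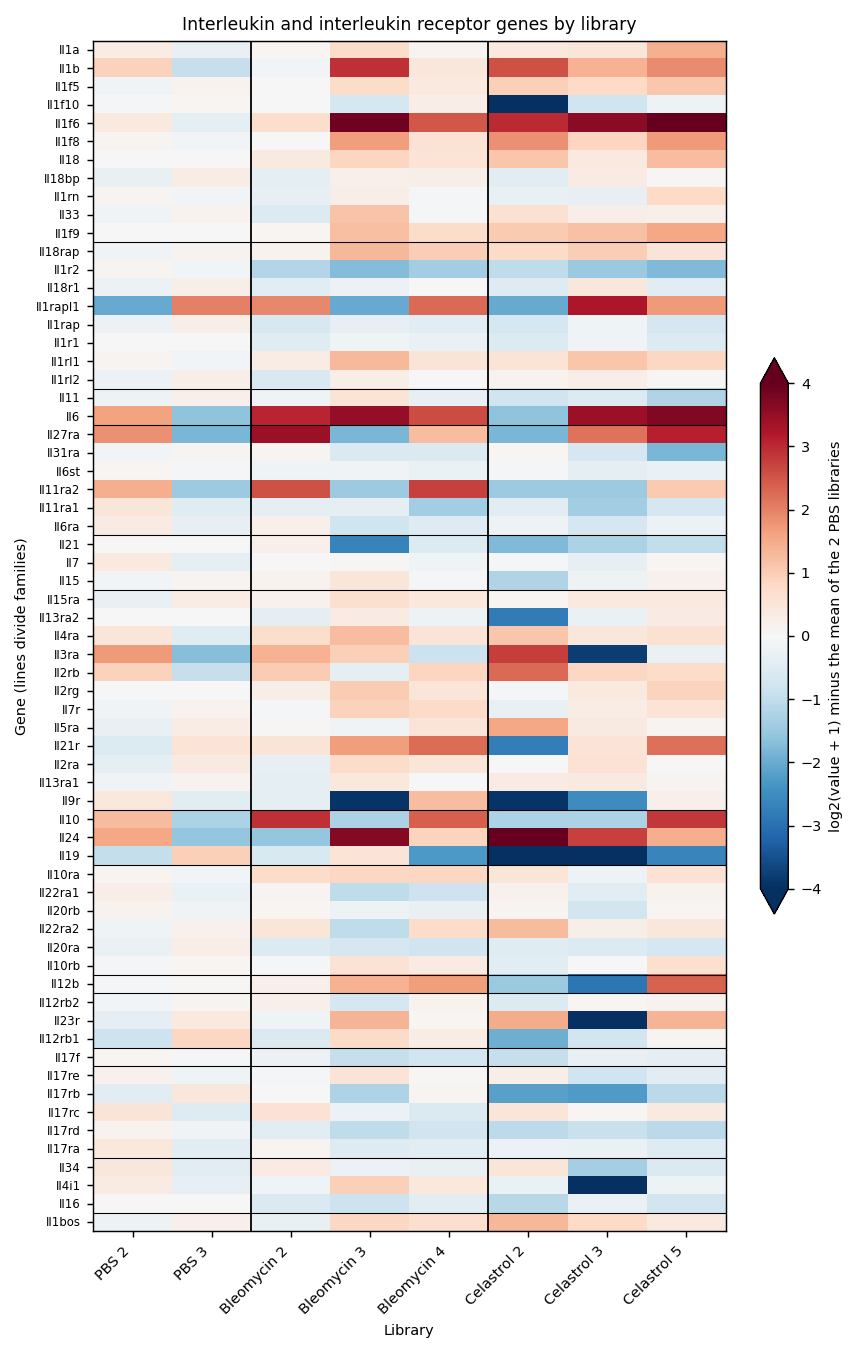
Each row is a member and each column a library, with colour giving log2(value + 1) minus the mean of the 2 PBS libraries, and horizontal lines divide the families. Il1r2 is blue in all 6 bleomycin and celastrol libraries and Il1f6 is red in the same 6, while colours are cut at -4 and 4 and members with values near 0, such as Il10 or Il24, change colour from library to library.

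Bleomycin was first compared with PBS, to ask how skin injected with bleomycin differs from skin injected with PBS. Of the 65 members 1 fell, 0 rose and 64 did not pass. Over all genes tested 0.224% were called as lower and 0.453% as higher, 0.677% in either direction. The median change of the members was 0.16, beside -0.00 over all genes tested, with 38 members above 0 and 27 below. Groups did not overlap for 17 members (26.2%), 9 higher and 8 lower, where 23.6% of all genes tested did not overlap (12% higher and 11.6% lower). At an unadjusted p under 0.05 there were 6 members higher (9.23%) and 3 lower (4.62%), beside 3.62% and 3.2% of all genes tested.

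Il1r2, the decoy receptor that binds IL-1 without signalling (chr1:40074079-40125231), was the member that fell. Its values were 1630 and 1375 in PBS libraries and 658, 447 and 567 in bleomycin libraries. Every bleomycin library lay below both PBS libraries. It fell by 1.44 ± 0.28 (SE) on the log2 scale, from 1503 ± 181 (SD, n = 2) to 558 ± 106 (n = 3), a ratio of 0.371 (limma adjusted p = 0.0493). That is close to the threshold of 0.05: without Celastrol 5 the adjusted p was 0.0644, without Celastrol 3 it was 0.0701, without Bleomycin 3 0.163, without Bleomycin 4 0.205, without PBS 3 0.241 and without PBS 2 0.306. The call was kept without Bleomycin 2 and without Celastrol 2, and the change lay between -1.57 and -1.29 in those 8 fits. With the replicate number as a block the change was -1.46 (adjusted p = 0.118).

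In celastrol libraries Il1r2 stood at 742, 536 and 438, all below PBS and spread across the bleomycin range. Against PBS Il1r2 fell by 1.42 ± 0.28 to 572 ± 155 (n = 3), a ratio of 0.381 (limma adjusted p = 0.0371). Between celastrol and bleomycin the difference was 0.02 ± 0.25 (95% interval -0.53 to 0.57, limma adjusted p = 0.998). In the celastrol comparison with PBS the call was lost without PBS 2 (adjusted p = 0.229), PBS 3 (0.179), Bleomycin 4 (0.0722), Celastrol 3 (0.0805) or Celastrol 5 (0.116), with the change between -1.63 and -1.25. Both comparisons use the same 2 PBS libraries. Fibroblast markers were also lower in the 6 bleomycin and celastrol libraries: 6 of 10 fell with bleomycin and 7 of 10 with celastrol. Their medians were -2.05 and -2.02. The 6 neutrophil markers tested had medians of 2.57 and 3.33. Of these, S100a8 rose with bleomycin, and S100a8 and S100a9 rose with celastrol. The listed markers Ly6g, Ngp, Camp and Ltf were not among the genes tested. The part of fibroblast or neutrophil markers in the Il1r2 values was not tested.

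The signalling receptors of IL-1 did not pass in either comparison with PBS. Il1r1, the receptor that transmits the IL-1 signal, stood at 2999 and 2939 in PBS, at 2132, 2634 and 2479 in bleomycin and at 2047, 2716 and 2029 in celastrol libraries. PBS was highest without overlap, but the differences were small, at -0.30 ± 0.19 (adjusted p = 1) for bleomycin and -0.40 ± 0.19 (adjusted p = 0.434) for celastrol in limma. Il1rap, the accessory chain shared by these receptors, was at -0.46 ± 0.21 and -0.52 ± 0.21 against PBS (adjusted p = 0.763 and 0.365). Per kb of exon, Il1r2 exceeded Il1r1 in PBS libraries, with ratios of 1.81 and 1.56, while bleomycin libraries had 1.03, 0.566 and 0.763 and celastrol libraries 1.21, 0.659 and 0.719. The lowest PBS ratio lay above the highest of the other 6 libraries. In deposited values, without exon length, Il1r2 was below Il1r1 in every library.

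The other receptors of the chromosome 1 cluster did not pass in any comparison. Il1rl1, the IL-33 receptor ST2 found on mast cells and type 2 lymphocytes, stood at 501 and 439 in PBS, at 572, 1143 and 675 in bleomycin and at 682, 1007 and 836 in celastrol libraries. All treated libraries were above PBS, yet the changes of 0.70 ± 0.31 and 0.82 ± 0.31 did not pass (limma adjusted p = 0.704 and 0.301). The 9 mast cell markers summed to between 4562 and 5335 in PBS, 5242 and 6963 in bleomycin and 6864 and 7220 in celastrol libraries, and their part in the Il1rl1 values was not tested. Il18rap, a chain of the IL-18 receptor, was at 0.81 ± 0.39 and 0.75 ± 0.39 (limma adjusted p = 0.784 and 0.49). Its partner Il18r1 stood at -0.21 and -0.17, and Il1rl2 at -0.12 and 0.15. Il1rapl1, better known from neurons, was at 0 in 3 libraries and at 37.1 or below in the others.

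**Figure D2:**
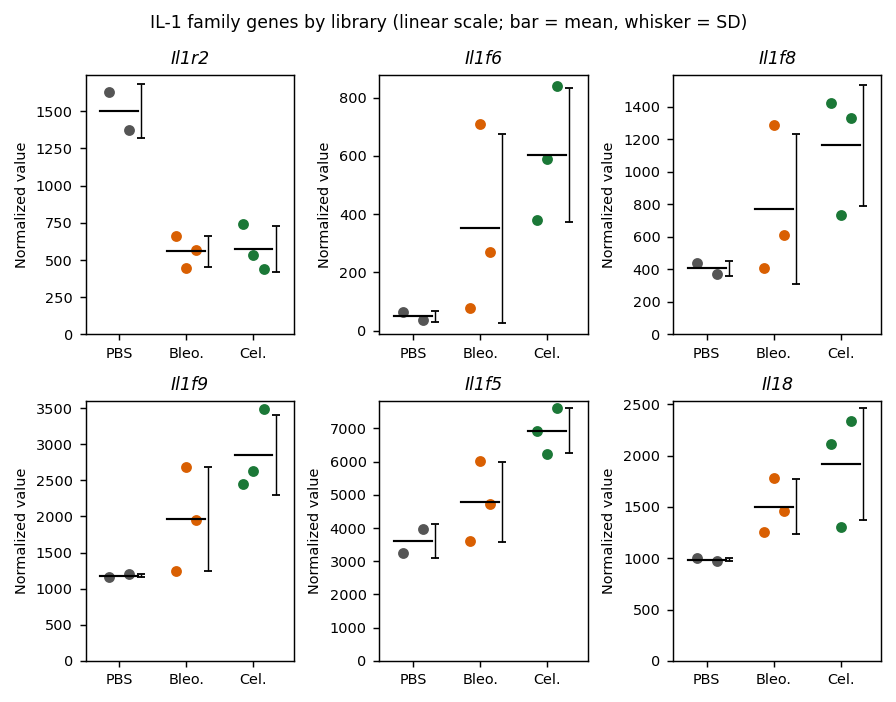
Points are normalized values of single libraries on a linear axis from 0, grouped as PBS (n = 2), bleomycin (n = 3) and celastrol (n = 3), with bars for means and whiskers for SD. The PBS points of Il1r2 (1375 and 1630) lie above the 6 others (438 to 742), while for the remaining 5 genes all 3 celastrol points lie above both PBS points.

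Among the ligands of the IL-1 family, the IL-36 genes and Il18 had the smallest p-values, and none passed. Over the 11 ligands and soluble regulators tested, the median change was 0.38 for bleomycin and 0.91 for celastrol against PBS. Groups did not overlap for 3 of them, all higher, in the first comparison and for 9, 8 of them higher, in the second. The 1 lower was Il1f10, at 115 and 129 in PBS and at 0, 69.2 and 107 in celastrol libraries. Its change was -2.64 ± 1.60 (limma adjusted p = 0.57), with the 0 in Celastrol 2. Over all genes tested 23.6% (12% higher) and 26.9% (13.2% higher) did not overlap in these 2 comparisons.

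Il1f6 (IL-36 alpha, chr2:24215418-24225702) stood at 62.6 and 35.3 in PBS, at 77.1, 710 and 268 in bleomycin and at 379, 590 and 839 in celastrol libraries. Bleomycin 2 was near PBS, and Bleomycin 3 was within the celastrol range. Against PBS the change was 2.36 ± 0.76 for bleomycin (limma adjusted p = 0.335) and 3.58 ± 0.76 for celastrol (limma adjusted p = 0.0506), the latter from 48.9 ± 19.3 (n = 2) to 603 ± 230 (n = 3). The celastrol value passed in 8 of 19 alternatives, with adjusted p between 0.00717 and 0.294. Between celastrol and bleomycin it was 1.22 ± 0.68 (95% interval -0.28 to 2.72, adjusted p = 0.975).

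Il1f9 (IL-36 gamma) lay at 1162 and 1199 in PBS, at 1244, 2691 and 1950 in bleomycin and at 2452, 2632 and 3486 in celastrol libraries. Every treated library was above PBS, by 0.66 ± 0.29 for bleomycin and 1.26 ± 0.29 for celastrol (limma adjusted p = 0.699 and 0.0728). Il1f8 (IL-36 beta) lay at 440 and 373 in PBS, at 411, 1289 and 610 in bleomycin and at 1426, 736 and 1329 in celastrol libraries. Its bleomycin libraries overlapped PBS, and its changes were 0.76 ± 0.44 and 1.46 ± 0.44 (limma adjusted p = 0.976 and 0.183). Without Bleomycin 2, the bleomycin library nearest PBS, Il1f6 passed in both limma comparisons with PBS (adjusted p = 0.0262 and 0.00717). Il1f9 then passed in that of celastrol (0.0179). Other omissions went the other way: for bleomycin, Il1f6 had a limma adjusted p of 0.841 without Bleomycin 3 and 0.835 without Bleomycin 4. Of 19 alternatives, Il1f6 passed in 2 for bleomycin. Il1f9 passed in 4 of 19 for celastrol, with limma adjusted p between 0.0179 and 0.294.

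Il1f5, which encodes the IL-36 receptor antagonist, lay at 3244 and 3963 in PBS, at 3608, 6018 and 4708 in bleomycin and at 6931, 6244 and 7603 in celastrol libraries. The celastrol libraries were above all 5 others, at 0.94 ± 0.22 against PBS (limma adjusted p = 0.0722) and 0.56 ± 0.20 against bleomycin (unadjusted p = 0.0155, limma adjusted p = 0.975). Per kb of exon, the 3 agonists summed to 1.575 and 1.217 times the antagonist in PBS libraries. The ratio was 1.469, 2.61 and 1.897 in bleomycin and 2.002, 2.065 and 2.457 in celastrol libraries, so that celastrol libraries were above PBS and overlapped bleomycin. The level of this ratio depends on the exon length used, 4493 bases for Il1f5 and 883 to 1648 for the agonists. In deposited values the agonist sum was below Il1f5 in every library.

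Markers of wounded epidermis were also higher in treated than in PBS libraries. Apart from Celastrol 5, their sum ranked the libraries in the same order as the IL-36 sum. Of 9 genes listed, 8 were tested, and they summed to 9322 and 2207 in PBS, 18221, 151640 and 26515 in bleomycin, and 97461, 70895 and 51385 in celastrol libraries. Against PBS 1 of them rose with bleomycin and 3 with celastrol: the antimicrobial gene Lcn2 (5.05, adjusted p = 0.0131, and 5.46, adjusted p = 0.00645) and, with celastrol, the wound keratins Krt16 (4.94, adjusted p = 0.0391) and Krt6a (3.82, adjusted p = 0.0417), all by limma. Il1f6, Il1f8 and Il1f9 summed to 1664 and 1607 in PBS, 1732, 4689 and 2828 in bleomycin and 4257, 3958 and 5654 in celastrol libraries. Bleomycin 2 had the lowest sum of treated libraries on both measures. Its IL-36 sum was 1732 beside 1664 and 1607 in PBS, and its marker sum 18221 beside 9322 and 2207. Celastrol 5 had the highest IL-36 sum of all libraries and the lowest marker sum of the celastrol libraries. The part of epidermal wounding in the IL-36 values was not tested.

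**Figure D3:**
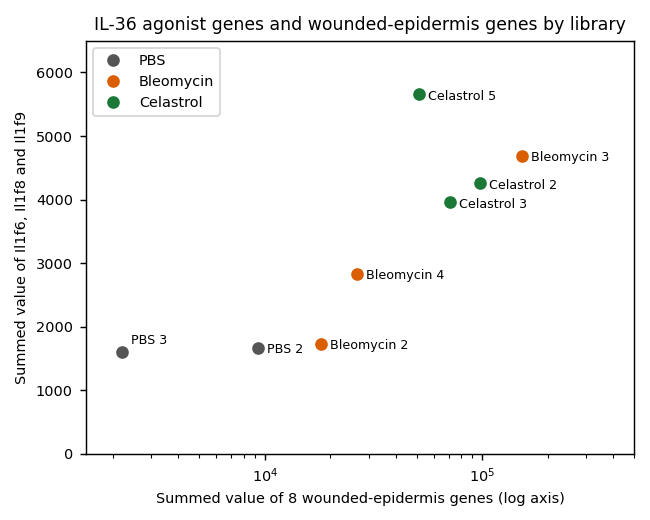
Each point is a library, with the summed value of 8 wounded-epidermis genes on a log axis and the summed value of Il1f6, Il1f8 and Il1f9 on a linear axis, coloured by group. The PBS libraries and Bleomycin 2 lie between 1607 and 1732 on the vertical axis, Bleomycin 4 at 2828, and the 3 celastrol libraries and Bleomycin 3 between 3958 and 5654.

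Il18, a cytokine that keratinocytes hold ready and that caspase-1 activates, lay at 1001 and 974 in PBS, at 1256, 1787 and 1459 in bleomycin and at 2112, 1302 and 2336 in celastrol libraries. All treated libraries were above PBS, by 0.59 ± 0.26 and 0.91 ± 0.26 (limma adjusted p = 0.712 and 0.16). Its soluble inhibitor Il18bp showed no such shift, at 0.03 ± 0.35 and -0.02 ± 0.35.

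Il1b, the inflammatory IL-1 of myeloid cells, was at 85.5 and 23.2 in PBS, at 41.3, 348 and 61.7 in bleomycin and at 266, 120 and 168 in celastrol libraries. Bleomycin 3 was apart from its group, the celastrol libraries were above PBS, and neither comparison passed (1.09 ± 0.90 and 1.94 ± 0.90, limma adjusted p = 1 and 0.429). Il1bos, a transcript annotated on the opposite strand across part of Il1b, ranged from 68.0 to 212, and since the use of strand is not given, reads of the stretch that it shares with Il1b cannot be told apart. Neutrophil markers summed to 933 and 1324 in PBS, to between 1422 and 6084 in bleomycin, highest in Bleomycin 3, and to between 2046 and 3124 in celastrol libraries over 6 of 10 listed genes; Ly6g, Ngp, Camp and Ltf were not among the genes tested. Of these, S100a8 rose against PBS in both comparisons (limma adjusted p = 0.0366 for bleomycin and 0.0167 for celastrol), and S100a9 with celastrol (0.0326). Macrophage markers summed to between 20930 and 24632, 23731 and 30452, and 18905 and 27843 in the 3 groups, and of 14 the Fc receptor gene Fcgr1 rose in both comparisons with PBS (limma adjusted p = 0.0366 and 0.0241). The part of either cell type in the Il1b values was not tested.

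Il1a, the IL-1 held inside keratinocytes, was at 0.30 ± 0.39 and 0.77 ± 0.39 against PBS, and the IL-1 receptor antagonist gene Il1rn at -0.05 ± 0.33 and 0.06 ± 0.33. Il1rn was highest in Celastrol 5, at 2196 where the other libraries lay between 1009 and 1469. Il33, an alarmin of barrier cells, was at 0.17 ± 0.39 and 0.34 ± 0.39, with Bleomycin 3 at 3166 and the other bleomycin libraries at 983 and 1376. Per kb, Il1a and Il1b together came to 0.844 and 0.557 times Il1rn in PBS, 0.869, 1.5 and 0.805 in bleomycin and 1.696, 1.335 and 1.101 in celastrol libraries. The celastrol ratios were above both PBS ratios, and Bleomycin 3 was among them.

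The gp130 cytokines had low values, with Il6 at 0 in 2 libraries. Among the gp130 and related receptors, Il6st and Il6ra had the highest values, while Il11ra2 and Il27ra were near 0 in several libraries. Il11, a cytokine that acts on fibroblasts and is known from models of fibrosis, lay at 30.1 and 40.4 in PBS, at 31.1, 51.3 and 27.9 in bleomycin and at 19.7, 23.6 and 14.5 in celastrol libraries. PBS and bleomycin overlapped, and celastrol was below both without overlap. Bleomycin differed from PBS by 0.02 ± 0.81 (95% interval -1.76 to 1.81, limma adjusted p = 1). Celastrol differed by -0.87 ± 0.72 from bleomycin (95% interval -2.46 to 0.72, adjusted p = 0.975) and by -0.85 ± 0.81 from PBS (adjusted p = 0.744) in limma. These intervals were wide, so neither a rise with bleomycin within its interval nor the absence of a rise was shown.

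Il6, the acute-phase cytokine, was at 8.35 and 0 in PBS, at 24.1, 34.0 and 17.6 in bleomycin and at 0, 32.1 and 38.4 in celastrol libraries. The bleomycin libraries were above PBS and the celastrol libraries spread over the whole range (3.05 ± 1.71 and 1.84 ± 1.71 against PBS, limma adjusted p = 0.959 and 0.737). Il6st varied least among the receptors named here, at 13391 and 12140 in PBS, 11217, 11601 and 10601 in bleomycin and 12174, 9896 and 10708 in celastrol libraries. Its changes were -0.20 ± 0.16 and -0.23 ± 0.16 against PBS, with 95% intervals of -0.54 to 0.15 and -0.57 to 0.12. Il11ra1, the specific IL-11 receptor, was at -0.69 ± 0.45 and -0.84 ± 0.45, from 625 and 316 in PBS libraries. Its near-identical copy Il11ra2 was at 17.5 or below, and reads of the pair may have been split between them. The IL-6 receptor gene Il6ra was at -0.37 in both comparisons, and Il31ra, the itch-cytokine receptor, at -0.35 and -0.81. Fibroblast markers fell beside these genes, 6 of 10 with bleomycin and 7 of 10 with celastrol, from summed values of 777760 and 359580 in PBS to between 33659 and 110190 in bleomycin and 32505 and 79714 in celastrol libraries, and their part in the Il11 and Il11ra1 values was not tested.

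**Figure D4:**
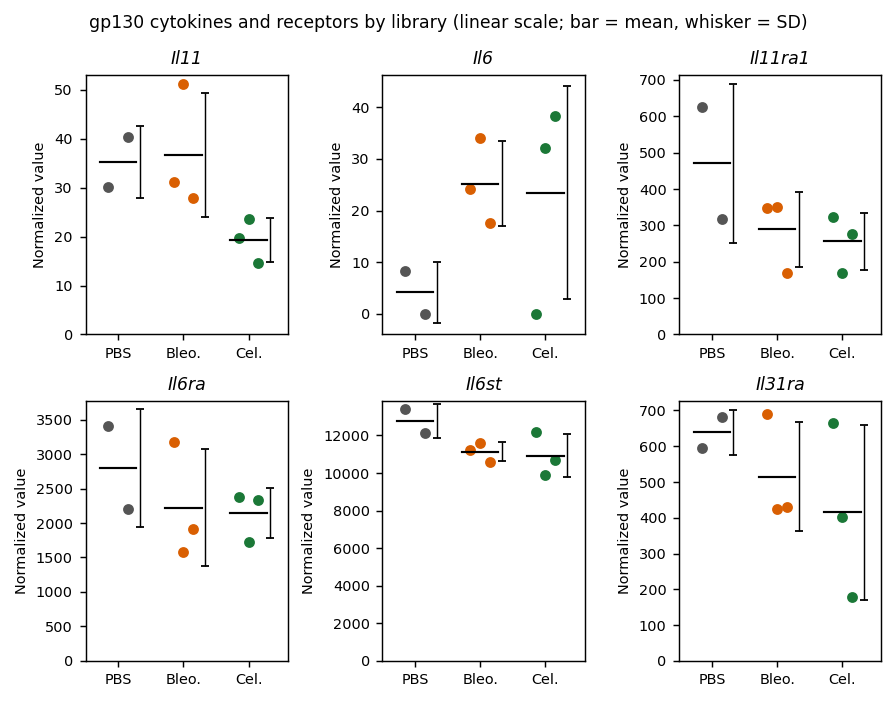
Points are normalized values of single libraries on a linear axis from 0 for 6 gp130 ligands and receptors, with bars for group means and whiskers for SD. Il11 is at 14.5 to 23.6 in celastrol and at 27.9 to 51.3 in the other libraries, Il6 reaches at most 38.4, and Il6st stays between 9896 and 13391.

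Receptors of the common gamma chain and type 2 group did not pass, and most were above 0: with bleomycin 10 of 12 were above 0, with a median of 0.45, and with celastrol 9 of 12, with a median of 0.23. Il4ra, the IL-4 and IL-13 receptor chain, stood at 753 and 377 in PBS, at 875, 1261 and 760 in bleomycin and at 1162, 736 and 823 in celastrol libraries. Bleomycin was above PBS by 0.82 ± 0.34 and celastrol by 0.74 ± 0.34, overlapping (limma adjusted p = 0.638 and 0.43). Il13ra1 was at 0.03 ± 0.22 and 0.26 ± 0.22, and the decoy Il13ra2 lay between 102 and 165 apart from Celastrol 2 at 18.1. Il2rg, the common gamma chain itself, was at 299 and 288 in PBS and at 342, 596 and 409 in bleomycin libraries (0.57 ± 0.35, limma adjusted p = 1), and celastrol libraries spread from 276 to 547. Il2ra, the high-affinity IL-2 receptor chain, was among the higher receptors, at 1276 to 2684 over all libraries. Beside it the 14 T and NK cell markers summed to 2208 to 2559 in PBS, 2233 to 2927 in bleomycin and 2263 to 2554 in celastrol libraries, and 0 of 14 passed in any comparison.

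In the IL-10, IL-12 and IL-17 families no member passed. Il10ra, the IL-10 receptor of leukocytes, was at 277 and 238 in PBS, at 425, 457 and 459 in bleomycin and at 363, 221 and 388 in celastrol libraries. Bleomycin libraries lay above all 5 others, at 0.79 ± 0.32 over PBS (limma adjusted p = 0.597), and celastrol was at -0.50 ± 0.28 against bleomycin (adjusted p = 0.975). Il17rd, a receptor-like inhibitor of FGF and IL-17 signalling, lay at 766 and 643 in PBS, at 513, 345 and 407 in bleomycin and at 341, 380 and 330 in celastrol libraries. All treated libraries were below PBS, with changes of -0.75 ± 0.27 and -1.0 ± 0.27 (limma adjusted p = 0.458 and 0.125). Il20ra, a receptor chain for IL-20 cytokines in epidermis, was also below PBS in all treated libraries. Its changes were -0.67 ± 0.25 and -0.58 ± 0.25 (limma adjusted p = 0.508 and 0.379). Il17rb, the IL-25 receptor, was at 50.1 and 96.0 in PBS and at 14.8, 13.5 and 32.0 in celastrol libraries (-1.84 ± 0.81, limma adjusted p = 0.4), and Il17ra was at -0.29 and -0.34. Outside these families Il16, a chemoattractant for CD4+ cells, was below PBS in all treated libraries (-0.61 ± 0.28 and -0.71 ± 0.28), and Il34, a ligand of the CSF1 receptor made by keratinocytes, was at -0.06 ± 0.55 and -0.48 ± 0.55.

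Celastrol against PBS gave the same count as bleomycin against PBS: 1 member fell, 0 rose and 64 did not pass, where 1.37% of all genes were called (0.824% higher and 0.543% lower). Groups did not overlap for 23 members (35.4%), 12 higher and 11 lower, beside 26.9% of all genes (13.2% higher and 13.7% lower). At an unadjusted p under 0.05 there were 6 members higher (9.23%) and 7 lower (10.8%), beside 6.13% and 5.91% of all genes. The median change was -0.04 over the members and -0.07 over all genes, and it was 0.11 without Celastrol 2 and -0.23 without Celastrol 5.

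Celastrol against bleomycin, which asked whether skin of celastrol mice differs from that of bleomycin mice, gave 0 called members and 0 called genes (0% of 23185) in limma. At an unadjusted p under 0.05 there were 2 members higher (3.08%), Il1f5 and Il1f9, and 1 lower (1.54%), Il19, beside 1.38% and 2.49% of all genes. Groups did not overlap for 5 members (7.69%), beside 8.73% of all genes (4.13% higher and 4.59% lower). Il1f5 was higher, and Il10ra, Il11, Il19 and Il4i1 were lower. The median was -0.06 over the members and -0.04 over all genes. Il19, an IL-20 family cytokine, was at 11.7, 27.4 and 2.94 in bleomycin and at 0, 0 and 2.13 in celastrol libraries (adjusted p = 0.975). It was at 9.04 and 36.4 in PBS. Il4i1, an amino acid oxidase of myeloid and B cells, was at 33.1, 73.2 and 50.7 in bleomycin and at 31.2, 0 and 32.7 in celastrol libraries (adjusted p = 0.975). Both Il19 zeros and that of Il4i1 fell in Celastrol 2 and Celastrol 3, the libraries with the lowest depth.

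**Figure D5:**
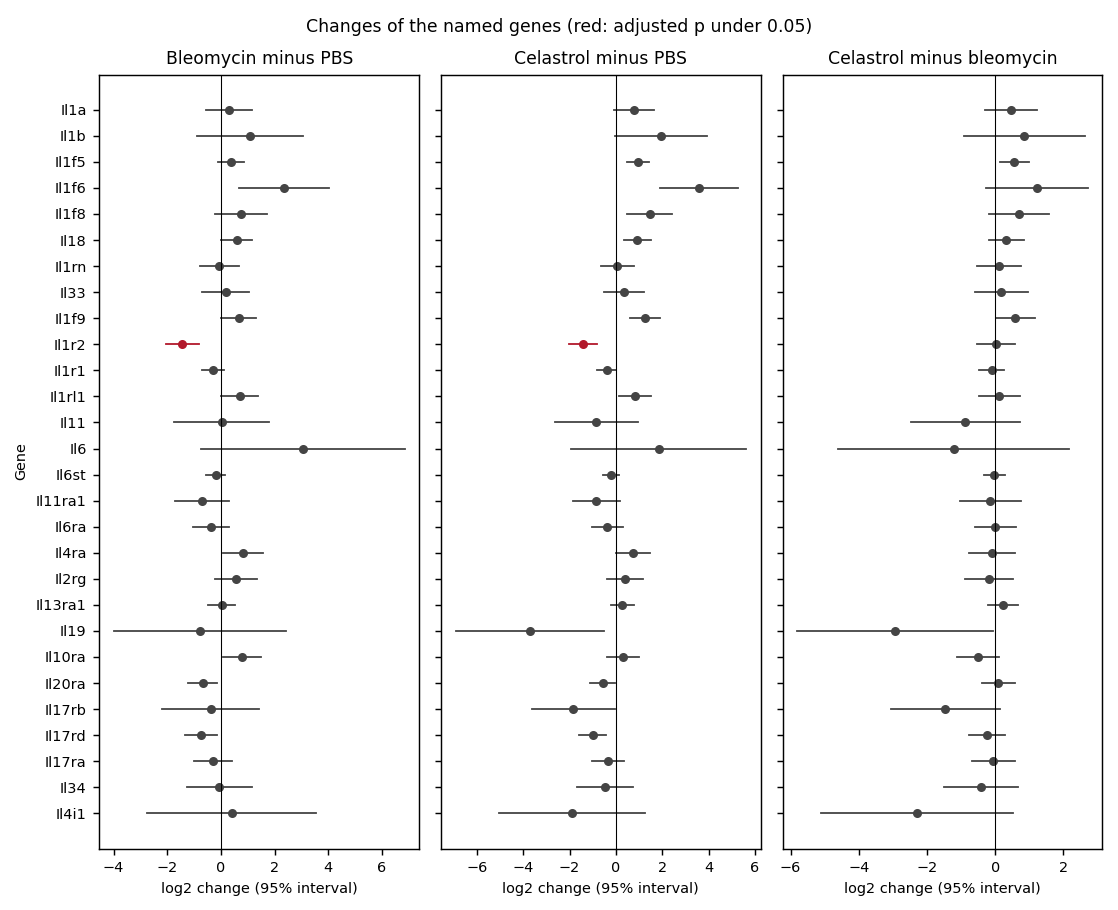
Each point is the log2 change of a named gene with its 95% interval from the limma fit, in 3 panels for bleomycin minus PBS, celastrol minus PBS and celastrol minus bleomycin, with red for an adjusted p under 0.05. Il1r2 is red in the first 2 panels, the IL-36 genes and Il18 lie right of 0 in all 3, and no gene is red in the third.

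Of the other genes of the pathway, the lists given here do not cover every signalling route. Of 13 feedback inhibitors 0 passed in any comparison, with the NF-kB inhibitor gene Nfkbia at 0.67 (adjusted p = 0.247) and Socs3, induced by gp130 cytokines, at 0.88 (0.869) for bleomycin. Of 9 inflammasome genes 0 passed, with Nlrp3 at 1.94 for bleomycin and 1.96 for celastrol against PBS (limma adjusted p = 0.28 and 0.182). Of 15 genes of IL-1 and IL-17 signalling to NF-kB, of 7 IL-6 family genes outside the name rule and of 7 other cytokine genes, 0 passed in any comparison.

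The tissue label was checked against markers. Basal keratinocyte genes summed to between 76845 and 167550 and differentiated keratinocyte genes to between 232940 and 472920 over the 8 libraries. Of 9 differentiated keratinocyte genes, 1 rose with bleomycin and 1 with celastrol against PBS. Skeletal muscle genes summed to 78932 to 92074 in PBS, 99496 to 150180 in bleomycin and 186900 to 243880 in celastrol libraries. Against PBS, 1 of 9 rose with bleomycin and 5 of 9 with celastrol. Endothelial genes summed to between 4669 and 7268, and 1 of 7 fell with celastrol against PBS. Adipocyte genes summed to between 13878 and 55126, B and plasma cell genes to between 1687 and 3040, and dendritic and Langerhans cell genes to between 2103 and 5735.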

How the data were processed

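RNA sequencing of skin was analysed in 2 PBS, 3 bleomycin and 3 celastrol libraries, grouped by their titles. The authors deposited a normalized signal per gene, which the name of the deposited table and the submitters' processing notes give as scaled with DESeq2 size factors (poscounts). The authors' tools, per the submitters' processing notes, also included STAR 2.7.3a and Partek 10.0.22, on the mm10 build; counter settings, annotation and the use of strand are not given in the sources used here. Below 30 reads, 49.4% to 69.4% of values fell within 0.03 of whole reads, so counts were not recovered and no count model was used. In R 4.3.3, log2(value + 1) was fitted by lmFit of limma 3.58.1 and moderated by eBayes with trend, for genes reaching 10 in 2 or more libraries. Tests were two-sided, with a threshold of 0.05 on the adjusted p and no covariate. The procedure was tested on simulated data. Members are the genes named by symbol; those described singly are the called members, the 8 with the smallest p in each comparison and a fixed set of 18, and others were chosen after their values were seen. The members and lists were chosen with earlier results of these data known. Levels per kb divide by the GENCODE M21 exon union, so a ratio between genes depends on that length, and transcript use was not measured. Alternatives changed the pseudocount, filter, fit, weights, scaling, replicate block and libraries included. A further list of signalling genes, in which some passed the test, is not reported here, so the lists given do not show that signalling genes were unaltered.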

Additional observations from a re-analysis of the deposited data

How the results depend on the processing

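Il1r2 stayed below PBS in 19 of 19 alternatives in both comparisons, and passed in 7 of 19 for bleomycin and in 11 of 19 for celastrol. Its adjusted p for bleomycin ranged from 0.00425 to 0.306 over these fits. With 2 or 3 libraries a group, and depth down to 14900000 reads, members with values near 10 were not measured well enough to show a difference, and the causes of the shifts below were not tested.

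Counts of called genes were 157 for bleomycin against PBS, 0 for celastrol against bleomycin and 317 for celastrol against PBS. With only the groups compared in the fit they were 46 (20 higher, 26 lower) in the first and 159 (103 and 56) in the last. Without a trend in eBayes they were 7 (2 and 5), 2 (0 and 2) and 19 (8 and 11), and with library weights the first was 711 (384 and 327). Leaving out each library in turn gave 16 to 229, 0 to 1 and 38 to 418. Without Bleomycin 3, Celastrol 2 and Celastrol 3 together, an alternative chosen after seeing the data, the first was 0 and the last 4 (1 and 3), with 0 called members in both.

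Called members for bleomycin against PBS (1) became 0 with a pseudocount of 0.5, only the groups compared, no trend, robust eBayes or median-ratio rescaling, and 2 with library weights. For celastrol against PBS (1) they became 2 with a pseudocount of 10, no filter, a mean of at least 50 or upper-quartile rescaling (1 higher and 1 lower), 2 with only the groups compared (Il1f6 and Il1f9, both higher, with Il1r2 lost at an adjusted p of 0.0757), 4 with library weights and 0 with no trend. Leaving out each library gave 0 to 2 and 0 to 4, and 0 to 0 for celastrol against bleomycin.

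Same-numbered libraries of different groups correlated at -0.005 to 0.203 in 6 pairs. Not every pair was over 0.1, and the labels tie no number to a shared animal or batch. The numbers were therefore not taken as pairing. Of 6 libraries, 5 correlated best with their own number. The 2 PBS libraries deviate from their mean by equal and opposite amounts, so their correlations mirror each other (0.203 and -0.203 with Bleomycin 2). The 5 matches are thus not separate and cannot decide on pairing. With the replicate number as a block, 17 genes (11 and 6) were called for bleomycin and 41 (30 and 11) for celastrol against PBS, with 0 members in each. Under the block Il1r2 had an adjusted p of 0.118 and 0.122, the celastrol median of the members was -0.23, Il34 was at 0.0568 for bleomycin, and Il1rn was at -0.31 for celastrol against PBS and -0.26 against bleomycin.

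Signs changed only for members that did not pass. Library weights gave Il11 -0.22 and Il33 -0.0089 for bleomycin against PBS, and for celastrol against bleomycin Il1r2 -0.13, Il11ra1 0.34, Il6ra 0.11, Il4ra 0.0783, Il17ra 0.008 and Il2rg 0.0494. Upper-quartile rescaling gave Il6ra 3e-04. Leaving out each library in turn, bleomycin against PBS ranged for Il11 from -0.24 to 0.23, Il1rn -0.19 to 0.078, Il13ra1 -0.17 to 0.23, Il17ra -0.71 to 0.14, Il34 -0.50 to 0.38, Il1a -3e-04 to 0.61 and Il33 -0.31 to 0.54. Celastrol against PBS ranged for Il17ra from -0.77 to 0.0873 and Il1rn -0.31 to 0.25. Celastrol against bleomycin ranged for Il1rn from -0.25 to 0.31, Il33 -0.19 to 0.65, Il11ra1 -0.49 to 0.12, Il6ra -0.22 to 0.29, Il17ra -0.18 to 0.14, Il1r2 -0.18 to 0.20, Il4ra -0.28 to 0.13, Il2rg -0.43 to 0.0668, Il6 -2.14 to 0.51, Il6st -0.11 to 0.0366 and Il34 -0.90 to 0.0197.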
